A study of Mus musculus with 9 samples.

Results

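The ligands and receptor of the CSF1 axis and the genes most used to describe macrophage polarization were followed in 4T1 primary tumors treated with the FAK inhibitor BI 853520, abbreviated BI here. Members were chosen by symbol and matched to the Entrez identifiers of the deposited counts: Csf1, Il34, Csf1r, Mrc1, Cd163, Arg1, Nos2, Retnla, Chil3 and Folr2, 10 genes of the 18755 counted. All 10 passed the filter on low counts and were among the 13966 genes tested. The 4T1 cell line is a metastatic murine breast cancer line, and the cells had been injected into a mammary fat pad of female BALB/c mice aged 6 to 10 weeks. From day 15 after injection, 6 mice received 50 mg/kg BI daily by oral gavage and 3 mice received the 0.5% Natrosol vehicle in which BI was dissolved, both for 5 days. Each tumor gave 1 library from a snap-frozen piece, and only tumors with RNA of sufficient quality had been kept by the study. The tumors are numbered as in the deposited labels, vehicle replicates 1 to 3 and BI replicates 4 to 9. A piece of tumor holds cancer cells, stroma and infiltrating leukocytes together, so that fewer cells of a type and less RNA per cell cannot be told apart in any value below.

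Macrophages depend on CSF1R, a receptor tyrosine kinase of the monocyte lineage, for survival and growth. It has the ligands CSF1 and IL-34, which share little sequence but bind the same receptor. In culture, IL-4 and IL-13 drive an alternative activation state marked by Arg1, Mrc1, Retnla and Chil3, whereas IFN-gamma with bacterial lipopolysaccharide drives a classical state marked by Nos2. Tumor macrophages usually mix features of both states. Folr2 and Cd163 mark macrophages of a resident or scavenging type.

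The total counts per library ranged from 16931607 to 33850245, so that 1 count was worth between 0.0295 and 0.0580 normalized CPM, the count scaled to the TMM-normalized library size. The floor of detection, set at 3 counts, lay between 0.0884 and 0.174 CPM, depending on the library, and covers counting error only. Every member was above it in every tumor. The keratin gene Krt8, a marker of the injected carcinoma cells, had 414 to 528 CPM in vehicle-treated and 347 to 443 CPM in BI-treated tumors. The epithelial marker Epcam had at most 10.3 CPM. The macrophage marker Adgre1, which encodes F4/80, had 76.2 to 89.9 CPM in vehicle-treated and 137 to 180 CPM in BI-treated tumors. Labels and methods name no library batch.

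Over the 10 members, 3 were higher in BI-treated tumors (Csf1r, Mrc1 and Folr2) and 2 were lower (Nos2 and Il34) at an adjusted p of at most 0.05. The other 5 (Csf1, Cd163, Arg1, Retnla and Chil3) did not pass. Among all genes tested, 14.6% were called higher and 14.1% lower, so that 5 calls among 10 members compare with 28.7% of the genes tested. The median log2 fold change was 0.70 over the members and -0.00371 over all genes tested. For 3 members (Csf1r, Folr2 and Chil3) the 6 BI-treated tumors lay above the 3 vehicle-treated tumors without overlap, as they did for 14.1% of the genes tested. For 0 members they lay below without overlap, against 14.0% of the genes tested, so that 3 of 10 members compare with 28.1% for either direction. At the limits the study itself used, an unadjusted p of at most 0.05 and a 1.5-fold difference, Csf1r, Mrc1, Folr2 and Chil3 were higher and Nos2 was lower. These 4 and 1 members compare with 9.59% and 3.57% of the genes tested, and the 5 together with 13.2%.

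**Figure D1:**
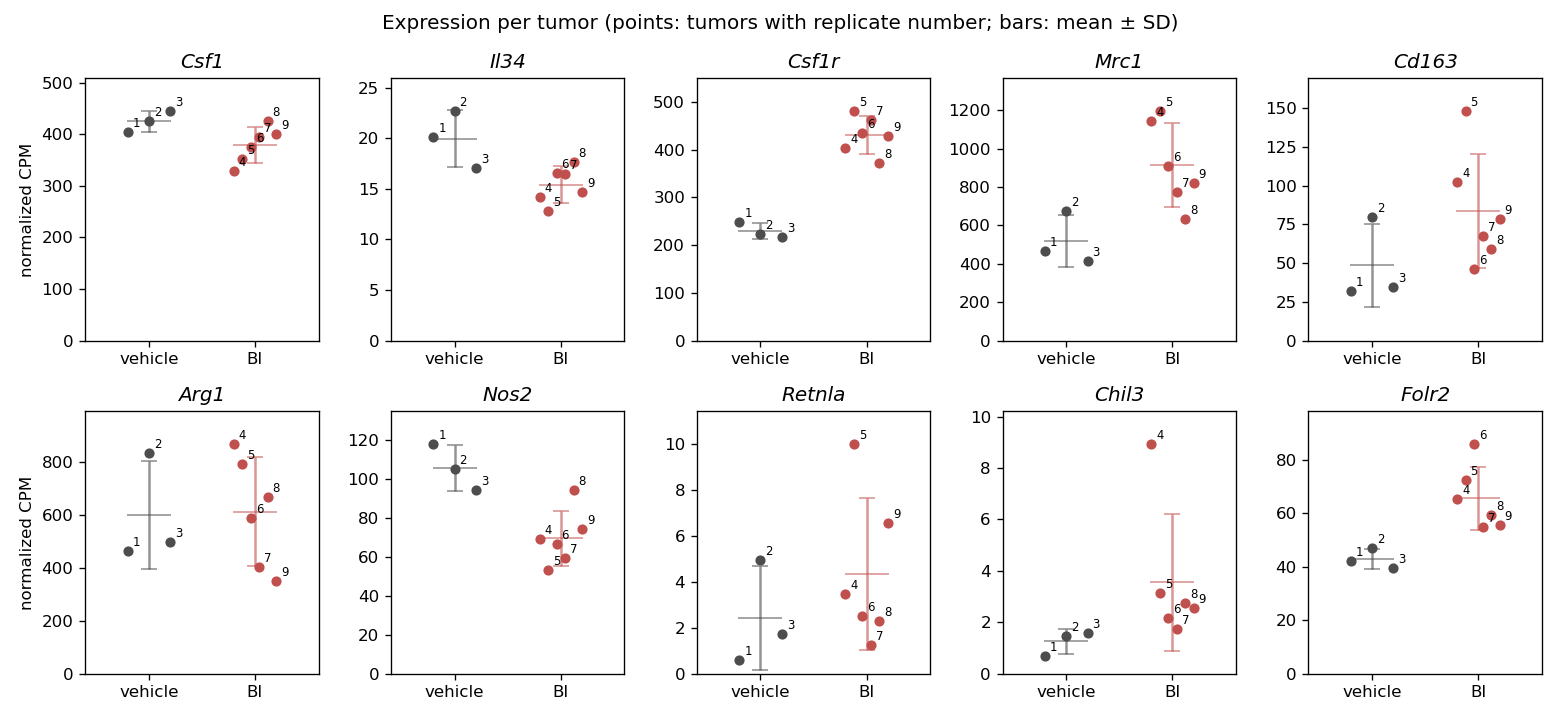
Normalized CPM of the 10 members on linear axes that start at 0, with 1 point per tumor labelled by its replicate number and bars for the mean and SD of 3 vehicle-treated and 6 BI-treated tumors. The groups are separate for Csf1r, Folr2 and Chil3, nearly separate for Mrc1, and overlap widely for Arg1, Cd163 and Retnla, where vehicle replicate 2 is the highest of its group.

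**Figure D2:**
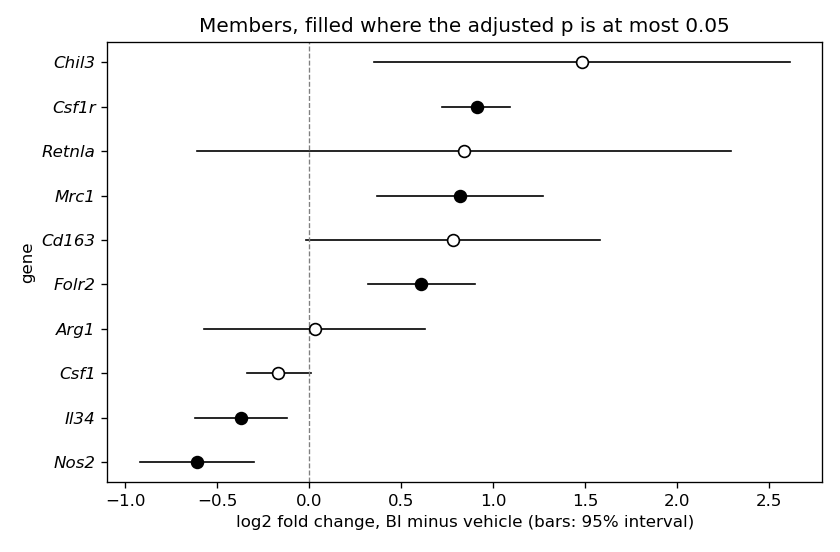
Log2 fold change of BI-treated against vehicle-treated tumors for each member with its 95% interval from edgeR's quasi-likelihood fit, filled where the adjusted p is at most 0.05. The filled points are Csf1r (0.91), Mrc1 (0.82), Folr2 (0.61), Il34 (-0.37) and Nos2 (-0.61).

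Of the CSF1R ligands, Il34 was lower after BI and Csf1 did not pass the test. Csf1 (Entrez gene 12977) encodes the main growth factor of mononuclear phagocytes (mm9 chromosome 3, minus strand, 107543966 to 107563387). It had 405, 426 and 445 CPM in the vehicle-treated tumors and from 328 to 425 CPM in the BI-treated tumors (median 385). In 5 of the 6 BI-treated tumors Csf1 was below every vehicle-treated tumor, and only BI replicate 8 lay among them. The log2 fold change was -0.17 (standard error, SE, 0.0798, 95% interval -0.34 to 0.01), and the p from the edgeR quasi-likelihood fit was 0.139 once adjusted over all genes by Benjamini-Hochberg. Il34 (Entrez gene 76527; mm9 chromosome 8, minus strand, 113265729 to 113329824) had 20.1, 22.7 and 17.1 CPM in the vehicle-treated tumors. In BI-treated tumors it had between 12.8 and 17.7 CPM (median 15.6), again with 5 of 6 below every vehicle-treated tumor and BI replicate 8 as the exception. It fell by 0.37 on the log2 scale (SE 0.116, edgeR adjusted p = 0.0316). This call was lost without vehicle replicate 1 (adjusted p = 0.0878), vehicle replicate 2 (0.152), BI replicate 4 (0.0557) or BI replicate 9 (0.0538), all from the same edgeR test. Its exons overlap Gm15894 and Gm15895 on the other strand, and whether the counting used strand was not stated.

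The log2 ratio of Csf1 to Il34 put the ligands side by side within each tumor. It was 4.41 ± 0.25 in vehicle-treated tumors (SD, n = 3) and 4.62 ± 0.12 in BI-treated tumors (SD, n = 6). The difference of 0.20 was smaller than the vehicle SD but larger than the BI SD. It did not pass (exact permutation test over 84 divisions, two-sided, p = 0.143, 0.286 after adjustment over 3 ratios, where 0.0238 is the smallest p this design allows).

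Csf1r showed the smallest spread and the clearest separation among the members that rose. The gene (Entrez gene 12978) encodes the receptor of both ligands and is transcribed in monocytes, macrophages and related cells. It had 248, 224 and 217 CPM in the vehicle-treated tumors and from 372 to 481 CPM in the BI-treated tumors, with a median of 432. The lowest BI-treated tumor was therefore well above the highest vehicle-treated tumor. The rise was 1.87-fold, a log2 fold change of 0.91 (95% interval 0.72 to 1.09, SE 0.0864, edgeR adjusted p = 4.00e-05). Leaving out any single tumor gave values from 0.86 to 0.96. Exons of Csf1r overlap Hmgxb3 on the other strand, and Hmgxb3 itself had 34.4 to 43.1 CPM over the 9 tumors. The genes whose log2 CPM, centered on each gene's mean, lay nearest to Csf1r over the 9 tumors were Atp13a2 (root mean square difference 0.0570), Prkcb (0.0587) and Phactr2 (0.0642), out of 12184 genes compared. Prkcb encodes a protein kinase C isoform found in leukocytes, and Atp13a2 a lysosomal transporter. For Csf1, the nearest were Shq1 (0.0538), Efemp2 (0.0594) and Ppp2r2a (0.0615).

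Mrc1 was among the most highly expressed members and rose after BI, with a wider spread than Csf1r. Mrc1 (Entrez gene 17533) encodes the mannose receptor CD206, an endocytic lectin of macrophages and of some endothelial cells (mm9 chromosome 2, plus strand, 14151041 to 14253684). It had 469, 673 and 413 CPM in the vehicle-treated tumors and from 636 to 1196 CPM in the BI-treated tumors (median 865). BI replicates 4 and 5 were highest, at 1147 and 1196 CPM, and only BI replicate 8 lay below vehicle replicate 2. The rise was 1.76-fold, a log2 fold change of 0.82 (95% interval 0.37 to 1.27, SE 0.206, edgeR adjusted p = 0.0119). The call was lost without vehicle replicate 1 (log2 fold change 0.75, adjusted p = 0.0576 from edgeR) or vehicle replicate 3 (0.68, adjusted p = 0.0677). Of 6 endothelial markers tested, Cdh5 (log2 fold change 0.41) and Kdr (0.38) were higher after BI and none was lower. Among all genes tested, 14.6% were higher and 14.1% lower. The summed level over 8 endothelial markers was 159 to 182 CPM in vehicle-treated and 181 to 257 CPM in BI-treated tumors. Among markers of lymphatic and sinusoidal endothelium, Lyve1, which macrophages also express, had 14.0 to 35.1 CPM, Flt4 had 4.54 to 5.58 CPM, and Prox1 and Stab2 were at 0 to 0.399 CPM. The part of endothelial cells in the Mrc1 values was not tested. The log2 ratio of Mrc1 to Csf1r was 1.14 ± 0.38 in vehicle-treated tumors (SD, n = 3) and 1.06 ± 0.30 in BI-treated tumors (SD, n = 6), a difference of -0.09 that was smaller than either spread (exact permutation test, two-sided, p = 0.667, before and after adjustment over 3 ratios). Without vehicle replicate 2 this difference was 0.13.

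The promoters of Mrc1 and Retnla are shown because they held matches to the core letters bound by PU.1, the lineage factor encoded by Spi1, and, for Retnla, to the pair of half-sites bound by STAT6, the factor activated by IL-4. Promoter windows came from RefSeq, and 6 of the 10 members had an entry (Csf1, Mrc1, Cd163, Retnla, Chil3 and, with 2 windows, Folr2). The 250 bases before each start were searched on both strands for GAGGAA (PU.1 core), for TTC and GAA set 4 bases apart (STAT6 pair) and for TTGCNNAA (C/EBP). These letters occur in 23.3%, 5.85% and 9.56% of all 32851 windows. The windows of Csf1, Cd163, Chil3 and Folr2 held none of the 3 motifs. Both sequences below were found by exact match in mm9 and run 5' to 3' on the plus strand, with the matches in capitals. That of Retnla stops where the mm9 annotation starts the gene.
Mrc1, chr2:14150791-14151040 of mm9: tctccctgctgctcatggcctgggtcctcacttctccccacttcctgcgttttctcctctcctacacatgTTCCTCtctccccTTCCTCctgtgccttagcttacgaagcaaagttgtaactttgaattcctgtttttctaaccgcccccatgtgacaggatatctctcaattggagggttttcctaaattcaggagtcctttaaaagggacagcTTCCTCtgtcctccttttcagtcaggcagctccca
Retnla, chr16:48842472-48842664 of mm9: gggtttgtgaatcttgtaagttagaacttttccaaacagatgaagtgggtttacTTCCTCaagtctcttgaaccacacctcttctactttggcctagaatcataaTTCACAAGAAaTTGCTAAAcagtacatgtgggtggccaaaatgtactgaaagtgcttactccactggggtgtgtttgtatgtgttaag
In Mrc1 all 3 stretches in capitals are the PU.1 core on the minus strand, starting 180, 167 and 35 bases before the start. In Retnla the capitals mark the PU.1 core, then the STAT6 pair and the C/EBP letters, which lie next to each other and do not overlap. Such matches describe the letters only. Spi1 had 49.7 to 63.7 CPM in vehicle-treated and 79.6 to 109 CPM in BI-treated tumors (log2 fold change 0.73, SE 0.115, edgeR adjusted p = 0.000803); it is named here because of its motif, after its values had been seen.

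Folr2 was higher in each BI-treated tumor than in any vehicle-treated tumor. Folr2 (Entrez gene 14276) encodes folate receptor beta (mm9 chromosome 7, minus strand, 108988512 to 108993831). It had 42.3, 47.0 and 39.7 CPM in vehicle-treated tumors and from 55.0 to 85.9 CPM in BI-treated tumors (median 62.3), with the highest value in BI replicate 6. The rise was 1.53-fold, a log2 fold change of 0.61 (95% interval 0.32 to 0.90, SE 0.134, edgeR adjusted p = 0.00561), and the call held with each tumor left out in turn (adjusted p at most 0.0360).

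Cd163 varied more between tumors of 1 group than between the group means. Cd163 (Entrez gene 93671; mm9 chromosome 6, plus strand, 124254669 to 124280545) encodes the scavenger receptor for complexes of haemoglobin and haptoglobin. It had 32.1, 79.5 and 34.4 CPM in the vehicle-treated tumors and from 45.9 to 148 CPM in the BI-treated tumors (median 72.7). Vehicle replicate 2 lay above 4 of the 6 BI-treated tumors. The log2 fold change was 0.78 (95% interval -0.02 to 1.58, SE 0.369), with an adjusted p of 0.133 from edgeR. Without vehicle replicate 2 it was 1.32, with an adjusted p of 0.0284.

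Of the enzymes that compete for arginine, Nos2 fell after BI and Arg1 did not pass the test. Nos2 (Entrez gene 18126; mm9 chromosome 11, plus strand, 78734289 to 78773756) encodes inducible nitric oxide synthase. It had 118, 105 and 94.2 CPM in vehicle-treated tumors and from 53.4 to 94.3 CPM in BI-treated tumors (median 67.9). In 5 of 6 BI-treated tumors Nos2 was below every vehicle-treated tumor, and BI replicate 8 was level with vehicle replicate 3. The log2 fold change was -0.61 (95% interval -0.92 to -0.30, SE 0.142, edgeR adjusted p = 0.00815), a level 1.52-fold lower after BI. The call held with each tumor left out in turn (adjusted p at most 0.0462).

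Arg1 (Entrez gene 11846; mm9 chromosome 10, minus strand, 24635014 to 24647276) encodes arginase 1, which turns arginine into ornithine and urea. It had 466, 834 and 500 CPM in the vehicle-treated tumors and from 352 to 869 CPM in the BI-treated tumors (median 627). The group means nearly coincided, at 600 ± 203 CPM (SD, n = 3) and 612 ± 207 CPM (SD, n = 6), while single tumors of the BI group differed up to 2.47-fold. The log2 fold change of 0.03 had a 95% interval of -0.57 to 0.63 (SE 0.276, edgeR adjusted p = 0.946), so that a change of about 1.5-fold in either direction would not have been told from 0. Leaving out single tumors gave values from -0.12 (without vehicle replicate 1) to 0.34 (without vehicle replicate 2). Over the 9 tumors, the genes nearest to Arg1 were F10, which encodes coagulation factor X, AU022793 and Ccdc159, at root mean square differences of 0.204, 0.237 and 0.251, less close than those found for Csf1r and Csf1.

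Within each tumor, the log2 ratio of Arg1 to Nos2 was 1.98, 2.98 and 2.41 in vehicle-treated tumors and ran from 2.24 to 3.89 in BI-treated tumors. In 3 of the 6 BI-treated tumors (replicates 4, 5 and 6) it was above every vehicle-treated tumor. The means were 2.46 ± 0.50 (SD, n = 3) and 3.08 ± 0.61 (SD, n = 6), a difference of 0.63 that did not pass (exact permutation test, two-sided, p = 0.190, 0.286 after adjustment over 3 ratios).

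The secreted IL-4-induced products Retnla and Chil3 were the members with the fewest reads, from 13 to 192 counts per tumor for Retnla and from 15 to 189 for Chil3. Retnla (Entrez gene 57262; mm9 chromosome 16, plus strand, 48842665 to 48844574) encodes the resistin-like molecule RELM alpha. It had 0.596, 4.96 and 1.74 CPM in the vehicle-treated tumors and from 1.26 to 10 CPM in the BI-treated tumors (median 2.98). The highest and lowest tumors differed 8.33-fold within the vehicle group and 7.95-fold within the BI group. The log2 fold change of 0.84 had an interval of -0.61 to 2.29 (SE 0.665, edgeR adjusted p = 0.372), and it was 0.39 without vehicle replicate 1, 0.40 without BI replicate 5 and 1.82 without vehicle replicate 2. The adipocyte gene Adipoq was highest in BI replicate 9 (13.4 CPM) and BI replicate 5 (8.13 CPM), the tumors with the highest Retnla among the BI group (6.55 and 10 CPM). BI replicate 8, however, had 7.36 CPM of Adipoq and only 2.28 CPM of Retnla. In the vehicle group the order was reversed, with Adipoq at 3.99, 2.06 and 3.42 CPM in replicates 1, 2 and 3. The summed level of 8 adipocyte markers was 60.6 to 91.2 CPM in vehicle-treated and 87.4 to 383 CPM in BI-treated tumors, and Adipoq was detected in every tumor; the part of fat tissue in the Retnla values was not tested.

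Chil3 (Entrez gene 12655), annotated as Chi3l3 (mm9 chromosome 3, minus strand, 105950472 to 106022425), encodes the chitinase-like protein Ym1. It had 0.687, 1.48 and 1.59 CPM in the vehicle-treated tumors and 1.75 to 8.93 CPM in the BI-treated tumors (median 2.64). All BI-treated tumors lay above all vehicle-treated tumors, and BI replicate 4 stood far above the rest. The log2 fold change was 1.48 (95% interval 0.35 to 2.61, SE 0.518), with an edgeR adjusted p of 0.0503, just above the threshold. Without BI replicate 4 it was 0.95, with an adjusted p of 0.0369, and the other tests and tumors left out placed it on either side of 0.05. Exons of Chil3 overlap those of its near-identical neighbor Chil4 on the same strand, and only reads with a single alignment had been counted, so the level of Chil3 is uncertain. Chil4 itself had at most 1 count in any tumor.

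Per kilobase of gene length, the members spanned a wide range of levels. Arg1 was highest in both groups, with 406 ± 138 CPM per kb in vehicle-treated and 415 ± 140 CPM per kb in BI-treated tumors (SD, n = 3 and 6). In vehicle-treated tumors Mrc1 (97.5 ± 25.7) and Csf1 (96.2 ± 4.53) followed and overlapped, then Csf1r (59.3 ± 4.25), Folr2 (39.8 ± 3.41) and Nos2 (26.6 ± 3.01), each apart from its neighbors, all in CPM per kb. Il34 (10.9 ± 1.52) and Cd163 (10.8 ± 5.95) overlapped in vehicle-treated tumors, and Retnla (4.07 ± 3.79) and Chil3 (0.813 ± 0.319) came last, each with a range that overlapped that of the gene before it. In BI-treated tumors Csf1r (111 ± 10.2 CPM per kb) stood above Csf1 (85.7 ± 7.89 CPM per kb). The lowest Csf1r value there, 96.0, lay just under the highest Csf1 value, 96.1 CPM per kb. Mrc1 (172 ± 41.1) overlapped with Csf1r, Folr2 (60.7 ± 11.0) with Csf1, and Cd163 (18.5 ± 8.18) with Nos2 (17.4 ± 3.56) in BI-treated tumors, in CPM per kb. Il34 (8.39 ± 0.992), Retnla (7.26 ± 5.54) and Chil3 (2.30 ± 1.74 CPM per kb) came last there, also with overlapping ranges between neighbors.

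**Figure D3:**
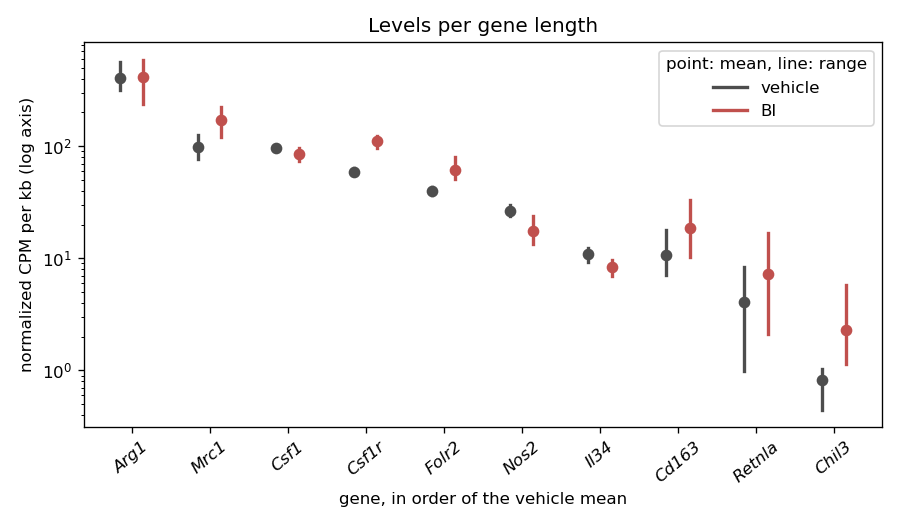
Normalized CPM per kb of gene length on a log axis, with the mean (point) and range (line) of 3 vehicle-treated and 6 BI-treated tumors, genes ordered by the vehicle mean. Arg1 lies highest in both groups, and Csf1r lies above Csf1 in the BI-treated tumors.

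The order of the tumors differed between members. Vehicle replicate 2 was the highest of its group for Mrc1, Cd163, Arg1, Retnla, Folr2 and Il34. In the BI group, replicates 4 and 5 took the upper places for Mrc1, Cd163, Arg1 and Chil3, whereas replicate 8 was highest for Csf1, Il34 and Nos2 and lowest for Csf1r and Mrc1. These are orders of 3 and 6 tumors and were not tested.

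General macrophage markers rose together with Csf1r. Of 18 markers tested, 17 were higher after BI and 1 was lower, against 14.6% and 14.1% of all genes tested, and their median log2 fold change was 0.92. C1qb, a complement subunit made by macrophages, went from 273 ± 25.5 to 590 ± 44.2 CPM (SD, n = 3 and 6), a log2 fold change of 1.11 (SE 0.0843, edgeR adjusted p = 1.29e-05). Siglec1, the sialic acid receptor CD169, rose by 1.48 and the cytoskeletal gene Aif1 by 1.14 on the log2 scale. Lyz2, the most abundant per length, rose by 0.71, and its call was lost without vehicle replicate 3 (adjusted p = 0.0507). Cd14, the co-receptor for bacterial lipopolysaccharide, was the gene that fell, from 151 ± 15.9 to 106 ± 9.38 CPM (log2 fold change -0.52).

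Set against the mean log2 CPM of these 18 markers within each tumor, the members differed among themselves. The marker mean was 6.99 to 7.18 in vehicle-treated and 7.91 to 8.16 in BI-treated tumors. The difference between Csf1r and this mean was 0.74 ± 0.09 in vehicle-treated and 0.73 ± 0.11 in BI-treated tumors (SD of log2 values, n = 3 and 6). The BI mean minus the vehicle mean on this scale was -0.09 for Mrc1, -0.11 for Cd163, 0.03 for Retnla and 0.38 for Chil3, each with overlapping groups. It was -0.31 for Folr2 and -0.90 for Arg1, also with overlapping groups. Csf1 (-1.08), Il34 (-1.28) and Nos2 (-1.53) lay below every vehicle-treated tumor in all BI-treated tumors. On this scale 80.3% of 13948 genes did the same and 0.244% lay above, so that 3 of 10 members is a smaller share than that of all genes. These relative values are a description and were not tested.

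**Figure D4:**
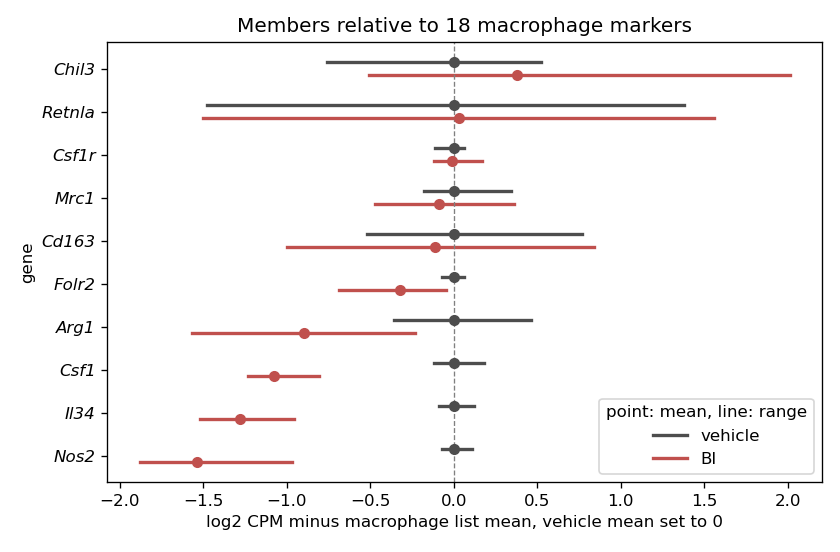
Log2 CPM of each member minus the mean log2 CPM of 18 macrophage markers in the same tumor, shifted so that the vehicle mean is 0, with the mean (point) and range (line) of each group. Csf1r stays at -0.01 in BI-treated tumors, whereas Csf1, Il34 and Nos2 lie between -1.08 and -1.53 and do not overlap with vehicle-treated tumors.

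Downstream of CSF1R, 10 of 15 adaptors, kinases and phosphatases tested were higher and 1 was lower (median log2 fold change 0.42). Here and for each list below, counts of called genes compare with 14.6% higher and 14.1% lower among all genes tested. Inpp5d, which encodes the inositol phosphatase SHIP1, rose from 72.0 ± 4.13 to 136 ± 7.24 CPM (log2 fold change 0.92), Plcg2, a phospholipase, from 81.8 ± 2.15 to 188 ± 27.0 CPM (1.2), and Tyrobp, the adaptor DAP12, from 137 ± 7.15 to 219 ± 12.2 CPM (0.67; SD, n = 3 and 6). Src, a kinase of wide expression, fell by 0.29 on the log2 scale (adjusted p = 0.0315 from edgeR), a call lost with any of the 3 vehicle-treated tumors left out, and without BI replicate 7 or 9 (0.0552 to 0.102). Of 11 transcription factors of the lineage, 7 were higher and none lower (median 0.66), among them Cebpa (log2 fold change 0.82) and Maf (0.73). Cebpb, the most abundant per length, had a log2 fold change of -0.39 (adjusted p = 0.0575 from edgeR), and it passed without vehicle replicate 3 (-0.57, adjusted p = 0.0106) or BI replicate 8 (-0.46, 0.0226). With all tumors kept, Cebpb was called lower by edgeR without a filter on low counts (-0.40, adjusted p = 0.0485). The likelihood ratio test of edgeR (-0.39, adjusted p = 0.0290) and DESeq2 (-0.39, 0.0290) also called it lower.

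Among other colony-stimulating factors, Csf3, which encodes G-CSF, the growth factor of neutrophils, fell from 27.2 ± 2.86 to 7.61 ± 1.58 CPM (SD, n = 3 and 6), a log2 fold change of -1.85 (SE 0.140, edgeR adjusted p = 1.29e-05). The GM-CSF receptor chains Csf2ra (log2 fold change 0.51) and Csf2rb (0.59) rose. Csf2 (0.65, adjusted p = 0.431 from edgeR), the G-CSF receptor Csf3r (-0.24, adjusted p = 0.0736) and the proteoglycan Sdc1 (-0.10, adjusted p = 0.473), a binding partner of IL-34, did not pass. Without vehicle replicate 1, Csf3r passed (-0.34, edgeR adjusted p = 0.0346). Ptprz1, another IL-34 receptor, had at most 8 counts in any tumor and was not tested.

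Of 15 genes tested of the IL-4 and IL-13 response, 7 were higher and none lower (median log2 fold change 0.29). Without vehicle replicate 3, 4 were called higher. Among all genes tested, 14.6% were higher and 14.1% lower. Clec10a, a lectin, rose from 8.53 ± 2.40 to 20.2 ± 5.79 CPM (log2 fold change 1.26), the transcription factor Irf4 from 3.52 ± 0.375 to 6.50 ± 0.698 CPM (0.88), and the scavenger receptor Msr1 from 350 ± 25.9 to 498 ± 54.4 CPM (0.51; SD, n = 3 and 6). Tgm2, the most abundant per length, had a log2 fold change of 0.10 (adjusted p = 0.653 from edgeR). The cytokine genes Il4 and Il13 were at 0 to 0.567 CPM in all tumors and were not tested.

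Of 22 genes tested of the IFN-gamma and lipopolysaccharide response, 6 were higher and 4 lower (median log2 fold change 0.27). Among all genes tested, 14.6% were higher and 14.1% lower. Ciita, the regulator of MHC class II genes, rose from 21.3 ± 4.84 to 47.2 ± 8.84 CPM (log2 fold change 1.14), the transcription factor Irf5 from 49.7 ± 3.90 to 81.3 ± 7.15 CPM (0.71), and the receptor chain Ifngr1 from 66.6 ± 5.67 to 94.6 ± 8.81 CPM (0.51; SD, n = 3 and 6). The inflammatory genes Ptgs2, which encodes cyclooxygenase 2 (344 ± 65.9 to 148 ± 57.1 CPM, log2 fold change -1.22), Il1b (141 ± 17.4 to 88.7 ± 17.2 CPM, -0.67) and Il6 (2.49 ± 0.186 to 1.33 ± 0.358 CPM, -0.91) fell together with Nos2. The call of Il6 was lost without vehicle replicate 3 (adjusted p = 0.0565 from edgeR), and without that tumor 2 genes were called lower in place of 4. Ifng itself, which encodes IFN-gamma, rose by 0.91 (adjusted p = 0.0183 from edgeR), a call lost without vehicle replicate 1 (0.0763) or 2 (0.0524). The most abundant per length, the guanylate-binding protein gene Gbp2, had a log2 fold change of -0.08 (adjusted p = 0.597 from edgeR).

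**Figure D5:**
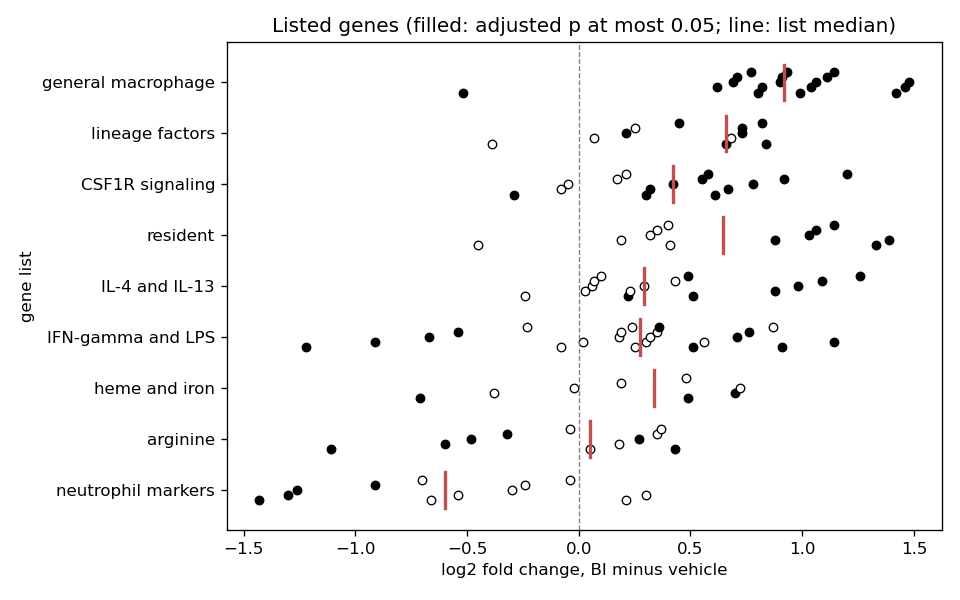
Log2 fold change of BI-treated against vehicle-treated tumors for each tested gene of 9 lists, filled where edgeR called the gene at an adjusted p of at most 0.05, with a line at the list median. General macrophage markers lie to the right of 0 except Cd14, and the filled neutrophil markers lie to the left. The CSF1R signaling, IFN-gamma and LPS, heme and iron, and arginine lists hold filled points on both sides.

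Of 12 genes of resident, perivascular and scavenging macrophages, 6 were higher and none lower (median log2 fold change 0.65). Among all genes tested, 14.6% were higher and 14.1% lower. The selenium carrier Selenop rose by 1.33, the chemokine Ccl8 by 1.39 and the scavenger receptor Stab1 by 1.14 on the log2 scale, while Lyve1, often found with Folr2, had 21.0 ± 8.36 and 27.8 ± 6.92 CPM (SD, n = 3 and 6; adjusted p = 0.240 from edgeR). Of 8 genes of haemoglobin and iron handling, 2 were higher and 1 lower (median 0.33), against 14.6% and 14.1% of all genes tested. The called genes were the biliverdin reductase Blvrb (log2 fold change 0.49), the transporter Slc11a1 (0.70) and the iron exporter Slc40a1 (-0.71). The call of Slc40a1 was lost with any of the 3 vehicle-treated tumors left out (adjusted p from 0.0504 to 0.0994 in edgeR). Fth1, the ferritin heavy chain and the most abundant per length, had a log2 fold change of 0.19 (adjusted p = 0.237 from edgeR), and 0.34 without vehicle replicate 2 (adjusted p = 0.0423).

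Of 11 genes tested of arginine transport and metabolism, 2 were higher and 4 lower (median log2 fold change 0.05). Among all genes tested, 14.6% were higher and 14.1% lower. Odc1, which turns the ornithine made by arginase into putrescine, fell from 225 ± 51.0 to 104 ± 16.9 CPM (log2 fold change -1.11), the arginine carrier Slc7a1 from 112 ± 6.84 to 73.7 ± 5.97 CPM (-0.60) and the spermidine synthase Srm from 78.2 ± 10.4 to 56.2 ± 4.78 CPM (-0.48; SD, n = 3 and 6). Ass1, an enzyme that rebuilds arginine from citrulline, rose by 0.43 (adjusted p = 0.0313 from edgeR), and the polyamine acetyltransferase Sat1, the most abundant per length, by 0.27 (0.0228). Both calls were lost without vehicle replicate 1 (0.0829 and 0.103) or 3 (0.129 and 0.108), and that of Ass1 also without vehicle replicate 2 or BI replicate 4, 7 or 9 (0.0525 to 0.0614).

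Of 10 paralogs of the members tested, 4 were higher and 2 lower (median log2 fold change 0.48). Arg2, the paralog of Arg1, was counted in the arginine list instead and did not pass (0.35, edgeR adjusted p = 0.0820). Among all genes tested, 14.6% were higher and 14.1% lower. The chitinase-like gene Chil1 fell from 5.82 ± 0.198 to 2.67 ± 0.774 CPM (log2 fold change -1.13) and the resistin-like gene Retnlg, known from neutrophils, from 17.2 ± 1.00 to 6.40 ± 1.42 CPM (-1.43; SD, n = 3 and 6). The mannose receptor paralog Mrc2 (log2 fold change 0.55) and the receptor kinases related to Csf1r, Kit (0.71) and Flt3 (1.01), rose, while Pdgfra (0.47, adjusted p = 0.170 from edgeR), Pdgfrb (0.10, 0.612), Retn (1.45, 0.0924) and the scavenger receptor gene Cd163l1 (-0.04, 0.975) did not pass. Without single tumors Cd163l1 ran from -0.67 to 0.71. Nos3, the endothelial nitric oxide synthase, rose by 0.48 (adjusted p = 0.0344 from edgeR), a call lost without vehicle replicate 1 or 3 or BI replicate 4 or 7 (0.0596 to 0.140). Nos1, Folr1 and Chit1 had at most 6, 8 and 10 counts in any tumor and were not tested.

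Neutrophils also express Arg1 and Chil3 in some settings. Of 12 neutrophil markers tested, 4 were lower and none higher (median log2 fold change -0.60). Counts called in this and the other marker lists compare with 14.6% higher and 14.1% lower among all genes tested. The alarmin S100a9 had 310 to 455 CPM in vehicle-treated and 111 to 207 CPM in BI-treated tumors, and the summed level of the 12 markers was 1113 to 1297 and 394 to 879 CPM. Most of that sum was Mmp9, S100a9 and S100a8 (vehicle means 517, 384 and 152 CPM), and Mmp9 did not pass (adjusted p = 0.101 from edgeR). Ltf (log2 fold change 0.30) and Mmp8 (0.21) went the other way and did not pass either. No neutrophil marker of the list was at 0 in every tumor, and the part of neutrophils in the Arg1, Nos2 and Chil3 values was not tested. Of 8 fibroblast markers, a possible source of Csf1 and Il34, 2 were higher and none lower, with a summed level of 1990 to 3419 CPM in vehicle-treated and 2637 to 5850 CPM in BI-treated tumors. Their number called higher was 0 without vehicle replicate 1 or 2, 1 without BI replicate 4, 7, 8 or 9, and 4 without vehicle replicate 3 or BI replicate 5 or 6. Of 6 epithelial markers, 2 were lower, Krt8 (log2 fold change -0.28) and Krt18 (-0.50), and none higher. Their sums were 954 to 1179 and 747 to 957 CPM, and 1 was lower without vehicle replicate 1 or 2 or BI replicate 6, 7, 8 or 9. Of those that did not pass, Epcam (log2 fold change 1.06, edgeR adjusted p = 0.0987) and Cdh1 (0.16, 0.686) went up and Krt14 (-0.85, 0.329) went down. The median over the epithelial list was -0.39. DESeq2 and leaving out BI replicate 4 each called 1 epithelial marker higher, and the study's limits called 1 higher and 1 lower. The part of fibroblasts and cancer cells in the ligand values was not tested. Dendritic cells share Csf1r in part: 6 of 9 of their markers were higher and none lower (summed level 76.7 to 91.1 and 119 to 180 CPM). Of 6 monocyte markers, 3 were higher and 1 lower, with 1 higher without vehicle replicate 2. Their summed level (7923 to 10065 and 12141 to 18267 CPM) was almost all Fn1, the fibronectin gene that stromal and tumor cells also express, and the other 5 summed to 234 to 328 and 277 to 492 CPM, with overlapping groups. Of 6 lymphocyte markers 4 were higher (34.8 to 40.6 and 67.3 to 94.2 CPM). Endothelial calls numbered 0 without vehicle replicate 3, 1 without vehicle replicate 1 or 2 and 4 without BI replicate 8, and lymphocyte calls numbered 2 without any single vehicle-treated tumor or BI replicate 9. Of 8 adipocyte markers 1 was higher, but 0 were without any single vehicle-treated tumor and 2 without BI replicate 4 or 6. Of 3 eosinophil markers tested none was called, at sums over 5 of 1.34 to 3.89 and 0.944 to 3.25 CPM. The eosinophil marker Epx was at 0 to 0.589 CPM.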

How the data were processed

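RNA sequencing was performed by the study on 9 primary 4T1 tumors, 3 from vehicle-treated and 6 from BI-treated mice. The authors aligned paired reads to mm9 with STAR, kept single alignments, and with QuasR assigned a read to a RefSeq gene if its start fell in an exon. The deposited table gives the authors' raw counts of 18755 genes, of which 18700 have a RefSeq symbol, together with a deposited gene length in bases.

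Genes with low counts were dropped by filterByExpr (at least 10 counts in enough tumors, at least 15 in all). BI was compared with vehicle over the 9 tumors, without covariates, by the quasi-likelihood F test of edgeR (version 4.0.16, R 4.3.3) with TMM factors. Genes whose p after Benjamini-Hochberg adjustment over the 13966 tested was 0.05 or less were called. Log2 CPM used a prior count of 2. Within-tumor ratios were compared with an exact permutation test, two-sided. Positions came from GENCODE on mm9. Scripts were tested on simulated data.

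The members and gene lists were chosen with earlier results of these data known. Genes named beside the members were, from each list, up to 3 called genes per direction with the smallest p and the most abundant gene per length, the other colony-stimulating factor genes and paralogs, and the 3 genes nearest to Csf1r, Arg1 and Csf1 with a mean log2 CPM of at least 1. Single marker genes of other cell types (Krt8, Krt18, Epcam, Adgre1, Prox1, Stab2, Flt4, Cdh5, Kdr, Lyve1, Adipoq, S100a8, S100a9, Mmp8, Mmp9, Ltf, Fn1 and Epx), Il4, Il13, Ifng and Hmgxb3 were added after their values had been seen. Cdh1, Krt14 and Arg2 were added in the same way. Labels do not say whether mice were housed or handled in batches, and p values judge each difference against the spread between these tumors. Alternatives were scaling by RLE or by library size, testing all genes or those with 1 CPM in 3 tumors or more, the likelihood ratio test of edgeR, DESeq2 1.42.0, limma-voom (limma 3.58.1), the study's limits (unadjusted p of at most 0.05 and 1.5-fold), a 2-fold limit, a prior count of 0.5, a list median in place of the mean, and leaving out each tumor in turn.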

Additional observations from a re-analysis of the deposited data

Results flagged for a closer look

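Of 86 sets of 6 values in the BI-treated tumors that were checked (members, ratios, list means and named genes), 4 had a highest or lowest tumor far from the others. Chance alone marks about 1 in 20, so that this number is near what chance gives. The sets share tumors and some genes. For Chil3, BI replicate 4 lay apart on the log2 scale, its gap being 0.649 of the whole range (8.93 CPM against at most 3.13 CPM in the other 5). For Irf4, BI replicate 5 was highest, with a gap of 0.674 of the range (7.87 CPM). For Srm, BI replicate 5 was lowest, with a gap of 0.786 (46.7 CPM). For the mean log2 CPM of the epithelial markers, BI replicate 9 was highest, with a gap of 0.790, and its Epcam level was 10.3 CPM.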

How the results depend on the processing

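Csf1r, Mrc1, Folr2, Il34 and Nos2 kept their direction under all alternatives run, and under RLE or library size scaling, other filters, the likelihood ratio test, DESeq2 and limma-voom they kept their calls. At the study's limits 1339 genes were higher and 499 lower, and 1 member was lower, since Il34 (-0.37) missed 1.5-fold. At an adjusted p of at most 0.05 with a 2-fold limit, 449 genes were higher and 128 lower and 0 members were called in either direction, since Csf1r (0.91), Mrc1 (0.82), Folr2 (0.61), Nos2 (-0.61) and Il34 (-0.37) lie under that limit. Chil3 passed without a filter (1.48, adjusted p = 0.0438), with the 1 CPM filter (1.49, 0.0489), the likelihood ratio test (1.49, 0.0176), DESeq2 (1.5, 0.00884) and the study's limits (1.48), but not with RLE (0.0501) or library size scaling (0.0519) or limma-voom (1.30, 0.0841).

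Leaving out single tumors gave 1332 to 2026 higher and 1172 to 1980 lower genes, with the lowest counts without vehicle replicate 3 (1332 and 1172), and 1289 were lower without vehicle replicate 1. Between 2 and 4 members were higher and 1 or 2 lower. The log2 fold changes ranged from -0.48 to -0.27 for Il34, 0.68 to 1.05 for Mrc1, 0.54 to 1.32 for Cd163, -0.12 to 0.34 for Arg1, 0.39 to 1.82 for Retnla, 0.95 to 1.71 for Chil3, -0.70 to -0.52 for Nos2, 0.52 to 0.68 for Folr2 and -0.20 to -0.13 for Csf1. For Cd163l1 the range was -0.67 to 0.71, with values above 0 (0.10 to 0.71) without vehicle replicate 1 or BI replicate 5, 6 or 8. The difference in the log2 ratio ranged from -0.20 to 0.13 for Mrc1 to Csf1r, 0.39 to 0.89 for Arg1 to Nos2 and 0.11 to 0.34 for Csf1 to Il34, and none of the 3 passed. No paired analysis was possible because the labels record no pairing between mice of the groups. Where calls changed, the cause was not tested beyond the fewer tumors or the higher limit. Retnla and Chil3, with as few as 13 and 15 counts in a tumor, are the members whose depth limits precision most.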
